A study of Mus musculus with 5 samples.

Results

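The genes described here switch the photoreceptor light response off and reset it. They encode recoverin, the retinal guanylate cyclases and their activators, rhodopsin kinase, RGS9, phosducin, the rod exchanger and a chaperone of the phosphodiesterase. The 10 genes were chosen by symbol (Rcvrn, Guca1a, Guca1b, Gucy2e, Gucy2f, Grk1, Rgs9, Pdc, Slc24a1 and Aipl1), and all 10 were found among the 24594 genes of the table. Messenger RNA was sequenced in 5 libraries of mouse retinal cells. Pups were electroporated in vivo on postnatal day 0, and retinas were taken 4 days later. The plasmid was CAG-Zfp292 for the 3 libraries labelled Zfp292-OE and CAG-GFP for the 2 control libraries. CAG is a strong promoter with no cell type restriction, and in both groups green fluorescent cells, which the labels call RPC, were sorted after dissociation. The labels do not state what made the cells given CAG-Zfp292 fluorescent, the strain of the mice, or whether each library had its own animals. The p-values below therefore reflect library-to-library spread alone, and that spread may be technical.

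In the dark, a rod or cone keeps cation channels open with cyclic GMP, and light lowers cyclic GMP through rhodopsin, transducin and the phosphodiesterase PDE6. Recovery needs each step to be undone: rhodopsin is phosphorylated by its kinase and capped by arrestin, transducin hydrolyses its GTP with the help of RGS9, and the guanylate cyclases make new cyclic GMP. Calcium ties these steps together, because it falls when the channels close, which frees the kinase from recoverin and lets the cyclase-activating proteins stimulate the cyclases. In the mouse retina rods are still being born in the first postnatal days, and most genes of this machinery are switched on as the cells mature.

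Zfp292, the gene named by the plasmid, gave 14631, 13197 and 15534 normalised reads in the libraries labelled Zfp292-OE, against 13288 and 14756 in the control libraries. These overlap (log2 fold change 0.04, SE 0.14, adjusted p = 0.87 in limma), and the sign of that value turned under other scalings. Zfp292 itself was thus not measurably higher, and directions below follow the labels alone. Reads assigned to genes numbered 114197740 to 135442444 in the libraries labelled Zfp292-OE, and 103096224 and 137683716 in the control libraries. All 11 progenitor markers examined were detected in every library, as were rod genes such as Cnga1 and Cngb1. All 8 cell cycle markers rose in the libraries labelled Zfp292-OE (summed normalised counts of 162031 to 322627, against 43025 and 48136 in control). Of 10 bipolar markers 8 fell and 0 rose (summed counts of 5319 to 6788, against 33115 and 37439), with Grm6 and Vsx1 at 0 in library 2 and Bhlhe23 at 0 in library 3. Microglial markers summed to 370.4 to 3689 in the libraries labelled Zfp292-OE and to 2886 and 8125 in control, with Csf1r at 0 in library 3. These sums overlapped, and of the 6 markers all 6 had negative log2 fold changes but 0 passed the test. Pigment epithelium markers summed to 1970 to 2748 in the libraries labelled Zfp292-OE and to 3192 and 2593 in control. Of the 8 listed 5 were tested, and 0 of these passed. Among these 5 only Rgr had a negative log2 fold change (−0.65). The others were positive, from 0.76 for Best1 to 3.35 for Pmel, which was at 0 in control library 1. Best1 had 280.7, 381.6 and 241.7 normalised counts in the libraries labelled Zfp292-OE, against 172.2 and 175.6 in control. Rgr made up most of the sum in every library, so the sums mainly follow this gene. It had 1509, 1792 and 1655 normalised counts in the libraries labelled Zfp292-OE, against 3015 and 2222 in control. Rpe65, by contrast, was at 0 in libraries 1 and 2 labelled Zfp292-OE and in control library 1. It had no more than 4 reads in any library. The part of these cell types in the results below was not tested.

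Every recovery gene had a lower mean in the libraries labelled Zfp292-OE, and 6 of the 10 passed the test. Gucy2f, Grk1, Rcvrn, Gucy2e, Pdc and Aipl1 fell, with log2 fold changes of −4.39 to −1.59, while Rgs9, Slc24a1, Guca1a and Guca1b did not pass. The test was limma on log2(normalised count + 1), taking control from the libraries labelled Zfp292-OE. Adjustment was by Benjamini-Hochberg over all 16316 tested genes, at a threshold of 0.05. By this rule 17.4% of all tested genes were called and 7.38% were called lower, 1632 genes higher and 1204 lower. Scaling to equal totals turned that split to 908 higher and 1977 lower, with 7 of the 10 recovery genes called. For 8 of the 10 genes all 3 libraries labelled Zfp292-OE lay below both controls, as they did for 25.7% of all tested genes. The median log2 fold change of the 10 was −1.67, beside −0.06 over all tested genes. These calls need both controls: with either 1 left out, the control group has no spread of its own, and calls over all genes were lost as well. All 10 log2 fold changes were negative in both of these fits. Their median was −1.60 with control library 1 left out and −1.75 with control library 2 left out. No other tool was run on those subsets. In these bulk samples, fewer cells of a type and less RNA per cell cannot be told apart.

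**Figure D1:**
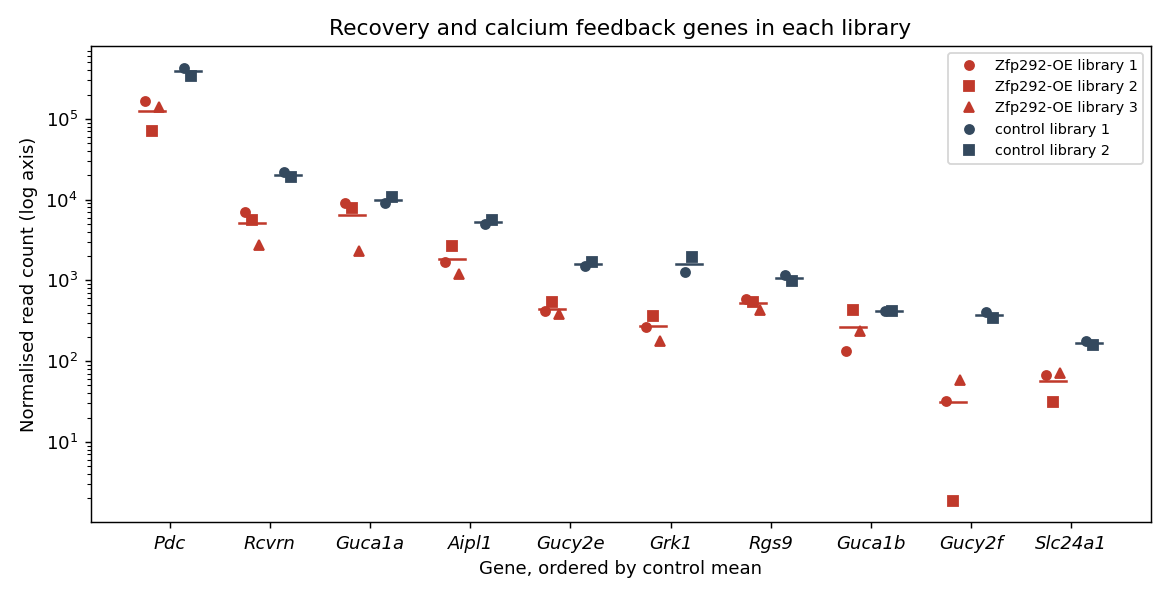
Normalised read counts (log axis) of the 10 recovery genes in each library, with 1 symbol per library and a line at each group mean; red marks libraries labelled Zfp292-OE (n = 3) and dark blue control libraries (n = 2). The groups overlap for Guca1a and Guca1b and for none of the other 8 genes.

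The guanylate cyclases, which make cyclic GMP, were both lower. Gucy2e encodes the main cyclase of rods and cones (Entrez 14919, GRCm38 chromosome 11, 69218117 to 69237279). It had normalised counts of 418.7, 535.7 and 381.9 in the libraries labelled Zfp292-OE, against 1517 and 1714 in the control libraries. The 3 values lie close together, all under a control level that is itself narrow, averaging 445.5 ± 80.3 (SD, n = 3) against 1615 ± 139 (SD, n = 2). On the log2 scale Gucy2e fell by 1.87 (SE 0.31, adjusted p = 0.0041 in limma).

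Gucy2f encodes the second retinal cyclase and lies on the X chromosome (Entrez 245650, 142079286 to 142197276). It had 31.9, 1.88 and 58.6 normalised counts in the libraries labelled Zfp292-OE, against 408.7 and 340.4 in control. Library 2 was almost empty for this gene, at 2 reads, and libraries 1 and 3 had 28 and 56. The ratio of the group means was 12.2-fold lower, and the log2 fold change was −4.39 (SE 1.22, adjusted p = 0.036 in limma). That size depends on library 2: it was −3.08 without it and −3.63 in edgeR, and it was −5.26 without library 3. Leaving out library 1 labelled Zfp292-OE ended the call at an adjusted p of 0.056 in limma, and the 16 alternatives spanned 0.0020 to 0.28. Gucy2e counts exceeded Gucy2f counts 13.1, 285 and 6.52 times in the libraries labelled Zfp292-OE, and 3.71 and 5.03 times in control. This ratio, with no correction for length, did not overlap between the groups.

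The cyclase-activating proteins did not pass the test, and their libraries disagreed. Guca1a encodes GCAP1, the calcium sensor that activates the cyclases of cones and rods (Entrez 14913, chromosome 17, 47394557 to 47413514). It had 9068, 7964 and 2311 normalised counts in the libraries labelled Zfp292-OE, against 9044 and 10832 in control. Libraries 1 and 2 were at 91.2% and 80.1% of the control mean, and library 3 was at 23.3%. The log2 fold change was −0.85 (SE 0.47, adjusted p = 0.25 in limma), with a 95% interval of −1.90 to 0.21. Without library 3 it was −0.22.

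Guca1b encodes GCAP2, which acts mainly in rods (Entrez 107477, chromosome 17, 47384694 to 47392967). It had 134.6, 430.5 and 236.5 normalised counts in the libraries labelled Zfp292-OE, against 418.5 and 421.3 in control. Here library 1 was lowest and library 2 was as high as the controls. The log2 fold change was −0.81 (SE 0.54, adjusted p = 0.33 in limma), with a 95% interval of −2.01 to 0.39. Both intervals reach −1.90 or lower, so an equal level in the groups was not shown. The 2 genes are neighbours on chromosome 17, with 1589 bases between their annotated spans, and neither shares exon bases with another gene in the GENCODE annotation. The ratio of Guca1a to Guca1b counts was 67.4, 18.5 and 9.77 in the libraries labelled Zfp292-OE, around the 21.6 and 25.7 of the control libraries. The cyclase-to-activator ratio of Gucy2e to Guca1a was 0.0462, 0.0673 and 0.165 in the libraries labelled Zfp292-OE, against 0.168 and 0.158 in control, so library 3 matched the controls and libraries 1 and 2 lay below them.

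Promoter windows, from 250 bases before to 50 bases after the annotated start, were found in RefSeq (GRCm38.p6) for 8 of the 10 genes: Pdc, Grk1, Slc24a1, Gucy2e, Aipl1, Rgs9, Guca1a and Gucy2f. They were searched on both strands for TAATCC, the core letters bound by the homeodomain factors CRX and OTX2, and for TGCTGA, part of the site of the rod factor NRL. No match of one overlapped a match of the other. The first occurred in 4 of the 8 windows, beside 7.06% of 32851 promoter windows of the genome, and the second in 3 of the 8 (Grk1, Aipl1 and Rgs9), beside 19.5%. The 4 windows with TAATCC are shown because they belong to both cyclases, an activator and the chaperone, of which only the activator Guca1a did not pass the test. Each is given 5′ to 3′ on the strand of the gene, which is the minus strand for all 4, and capitals mark either motif in either direction. They span chr11:69236973-69237272 for Gucy2e, chrX:142196887-142197186 for Gucy2f, chr17:47400557-47400856 for Guca1a and chr11:72037460-72037759 for Aipl1.
Gucy2e: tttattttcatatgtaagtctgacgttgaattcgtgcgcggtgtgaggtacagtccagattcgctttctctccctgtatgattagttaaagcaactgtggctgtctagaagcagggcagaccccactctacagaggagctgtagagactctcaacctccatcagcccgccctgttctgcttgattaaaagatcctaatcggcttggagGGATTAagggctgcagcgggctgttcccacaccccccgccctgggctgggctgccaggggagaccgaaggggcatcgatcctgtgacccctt
Gucy2f: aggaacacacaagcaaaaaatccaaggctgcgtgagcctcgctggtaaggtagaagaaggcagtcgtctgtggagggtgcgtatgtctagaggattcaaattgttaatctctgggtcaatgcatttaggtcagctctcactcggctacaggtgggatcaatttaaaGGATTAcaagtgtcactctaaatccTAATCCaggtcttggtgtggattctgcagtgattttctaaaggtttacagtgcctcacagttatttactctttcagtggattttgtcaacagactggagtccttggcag
Guca1a: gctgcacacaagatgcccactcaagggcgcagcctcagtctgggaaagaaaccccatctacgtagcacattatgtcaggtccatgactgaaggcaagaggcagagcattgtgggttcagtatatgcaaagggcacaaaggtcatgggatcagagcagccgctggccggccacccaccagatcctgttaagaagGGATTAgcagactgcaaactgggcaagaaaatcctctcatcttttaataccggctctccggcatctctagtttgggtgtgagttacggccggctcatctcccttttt
Aipl1: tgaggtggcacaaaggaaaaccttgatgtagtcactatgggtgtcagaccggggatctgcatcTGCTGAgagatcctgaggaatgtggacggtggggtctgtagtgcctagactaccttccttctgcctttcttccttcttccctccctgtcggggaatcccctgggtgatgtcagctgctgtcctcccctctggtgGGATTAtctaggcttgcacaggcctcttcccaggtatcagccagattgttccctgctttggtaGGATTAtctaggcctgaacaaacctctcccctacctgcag
The motif TAATCC begins 42 bases upstream of the start in Gucy2e, 57 in Guca1a, and 84 and 59 in Gucy2f. In Aipl1 it begins 53 bases upstream and again 10 bases past the start. Not every window lies at the upstream end of its gene's RefSeq span. The start used lies 12908 bases inside the span printed above for Guca1a, 4951 bases inside for Aipl1, 340 for Gucy2f and 257 for Gucy2e, so these are windows at the start of a shorter transcript. A GENCODE transcript starts at that base for Aipl1 and Gucy2e, 5 bases from it for Gucy2f and 22 bases from it for Guca1a. A match is a string of letters and not a measured binding site, and windows with and without it occur among the genes that fell.

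Of the factors known to act through these letters, Crx was lower and Otx2 was not detectably so. Crx, the homeodomain factor of photoreceptors, had 20145, 21076 and 27099 normalised counts in the libraries labelled Zfp292-OE, against 45024 and 45897 in control (log2 fold change −1.01, adjusted p = 0.0029 in limma). Nrl, the factor that sets rod fate, had 3815, 3053 and 2957, against 7717 and 11398 (−1.53, adjusted p = 0.0016). Otx2, which acts upstream of Crx and was named here after its values were seen, had 117569, 134300 and 203715, against 156329 and 110863, and the groups overlapped. Of 12 photoreceptor transcription factors listed 0 rose, 5 fell and 7 did not pass, and their median was −0.78 on the log2 scale. The other factors with the smallest p were Nr2e3 (−1.70), a nuclear receptor that represses cone genes in rods, and Samd7 (−1.27), a photoreceptor protein of Polycomb repression.

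Rhodopsin shut-off genes fell. Grk1 encodes rhodopsin kinase, which phosphorylates the active pigment (Entrez 24013, chromosome 8, 13405081 to 13421951). It had 267.0, 362.8 and 180.0 normalised counts in the libraries labelled Zfp292-OE, against 1273 and 1945 in control. The highest of the 3 was at 22.5% of the control mean, although the controls themselves differed. Grk1 fell by 2.597 on the log2 scale (SE 0.41, adjusted p = 0.0031 in limma). Recoverin, the calcium sensor that holds this kinase inactive in the dark, is encoded by Rcvrn (Entrez 19674, chromosome 11, 67695326 to 67703355). Its normalised counts were 7011, 5611 and 2779 in the libraries labelled Zfp292-OE, against 21942 and 18901 in control. The groups stood well apart, with library 3 lowest, and averaged 5134 ± 2156 (SD, n = 3) against 20421 ± 2151 (SD, n = 2). Rcvrn fell by 2.09 on the log2 scale (SE 0.32, adjusted p = 0.0027 in limma). Recoverin is also made by some cone bipolar cells, and the bipolar markers above were lower in the same libraries. There were 26.3, 15.5 and 15.4 Rcvrn counts per Grk1 count in the libraries labelled Zfp292-OE, against 17.2 and 9.72 in control, and these ratios overlapped. Sag, the rod arrestin that caps phosphorylated rhodopsin, had 87722, 77582 and 63757 normalised counts, against 312775 and 251399 in control (log2 fold change −1.89, adjusted p = 0.00037 in limma).

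In the GTPase-activating complex on transducin, the catalytic subunit did not pass the test and both of its partners fell. Rgs9 encodes the subunit that speeds GTP hydrolysis (Entrez 19739, chromosome 11, 109225348 to 109298181), and the gene also has a longer brain form that per-gene counts do not separate. It had 595.5, 543.2 and 430.1 normalised counts in the libraries labelled Zfp292-OE, against 1168 and 970.4 in control. The groups did not overlap, and the mean was 48.9% of the control mean. The log2 fold change of −1.04 (SE 0.32) narrowly missed the threshold, with an adjusted p of 0.051 in limma. It passed in edgeR (adjusted p = 0.036), and the range over 16 alternatives was 0.010 to 0.21. Its membrane anchor Rgs9bp, named after its values were seen, had 593.3, 453.0 and 279.4, against 2059 and 2438 (log2 fold change −2.41, adjusted p = 0.0025 in limma). Its other partner Gnb5, the G protein beta subunit that stabilises RGS9 and is made by many neurons, had 6918, 9414 and 8618, against 17700 and 13230 (−0.89, adjusted p = 0.012 in limma), and was also chosen after its values were seen. Rgs9 counts per Rgs9bp count were 1.004, 1.199 and 1.54 in the libraries labelled Zfp292-OE, against 0.567 and 0.398 in control, with no overlap, and the exact permutation test on them is given with the other ratios below.

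Phosducin, which binds the beta-gamma subunits of transducin, was by far the most abundant of the 10. Pdc (Entrez 20028, chromosome 1, 150319417 to 150333906) had 164904, 70633 and 139071 normalised counts in the libraries labelled Zfp292-OE, against 431078 and 340928 in control. Library 2 was lowest, at 18.3% of the control mean, and libraries 1 and 3 were at 42.7% and 36.0%. Pdc fell by 1.71 on the log2 scale (SE 0.30, adjusted p = 0.0056 in limma). Pdc made up 79.6% to 94.8% of the summed normalised counts of the 10 genes in the libraries labelled Zfp292-OE, and 91.3% and 89.3% in control. Its counts per count of Gngt1, the gamma subunit of rod transducin, were 4.77, 3.16 and 8.29 in the libraries labelled Zfp292-OE, against 4.597 and 3.48 in control, so the ratios overlapped.

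Slc24a1, the rod exchanger that extrudes calcium in return for sodium (Entrez 214111, chromosome 9, 64922861 to 64951620), was among the least abundant of the 10. It had 67.3, 31.0 and 72.2 normalised counts in the libraries labelled Zfp292-OE, against 177.6 and 156.3 in control, without overlap. The log2 fold change was −1.63 (SE 0.73) and did not pass (adjusted p = 0.15 in limma). Its 95% interval ran from −3.25 to just under 0. Aipl1 encodes the chaperone needed to fold PDE6 (Entrez 114230, chromosome 11, 72028717 to 72042460). It had 1693, 2645 and 1211 normalised counts in the libraries labelled Zfp292-OE, against 5026 and 5571 in control. Library 2 was the highest of its group, at 49.9% of the control mean, and still below both controls (log2 fold change −1.59, SE 0.30, adjusted p = 0.0070 in limma). Aipl1 counts per count of its client Pde6b were 0.394, 0.554 and 0.246 in the libraries labelled Zfp292-OE, against 0.186 and 0.265 in control, and these overlapped.

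Ratios of 10 gene pairs were compared over the libraries with an exact two-sided permutation test on their log2 values. With 3 libraries against 2 this test cannot give a p below 0.2. The ratios Gucy2e to Gucy2f, Rgs9 to Rgs9bp and Pdc to Pdcl were among those that reached that smallest value (exact p = 0.2, 0.5 after Benjamini-Hochberg adjustment over the 10). Pdc counts per Pdcl count, for example, were 13.2, 5.28 and 10.7 in the libraries labelled Zfp292-OE, against 33.7 and 37.1 in control.

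The 3 libraries labelled Zfp292-OE did not rank the genes alike. Library 3 was the lowest of the 3 for 6 genes (Rcvrn, Guca1a, Gucy2e, Grk1, Rgs9 and Aipl1), library 2 for 3 (Gucy2f, Pdc and Slc24a1) and library 1 for Guca1b. The median of the 10, as log2(normalised count + 1) minus the control mean, was −1.59, −1.72 and −2.09 in libraries 1, 2 and 3. Rod activation genes had medians of −2.32, −2.15 and −2.28, and cone genes −0.95, −0.65 and −1.26. Library 3 was also the lowest of the 3 for 9 of 10 cone genes and for 5 of 9 rod activation genes. The cone arrestin Arr3, for example, had 1921, 1509 and 335.9 normalised counts in the libraries labelled Zfp292-OE, against 7386 and 6484 in control (log2 fold change −2.80, adjusted p = 0.012 in limma). Without library 3 labelled Zfp292-OE its log2 fold change was −2.02, and it was −3.28 without library 1. The blue cone opsin Opn1sw, named after its values were seen, had 51801, 40832 and 21775, against 49876 and 37935, which is near the control level in libraries 1 and 2 and lower in library 3, as for Guca1a. Whether cone content plays a part in the Guca1a values was not tested.

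**Figure D2:**
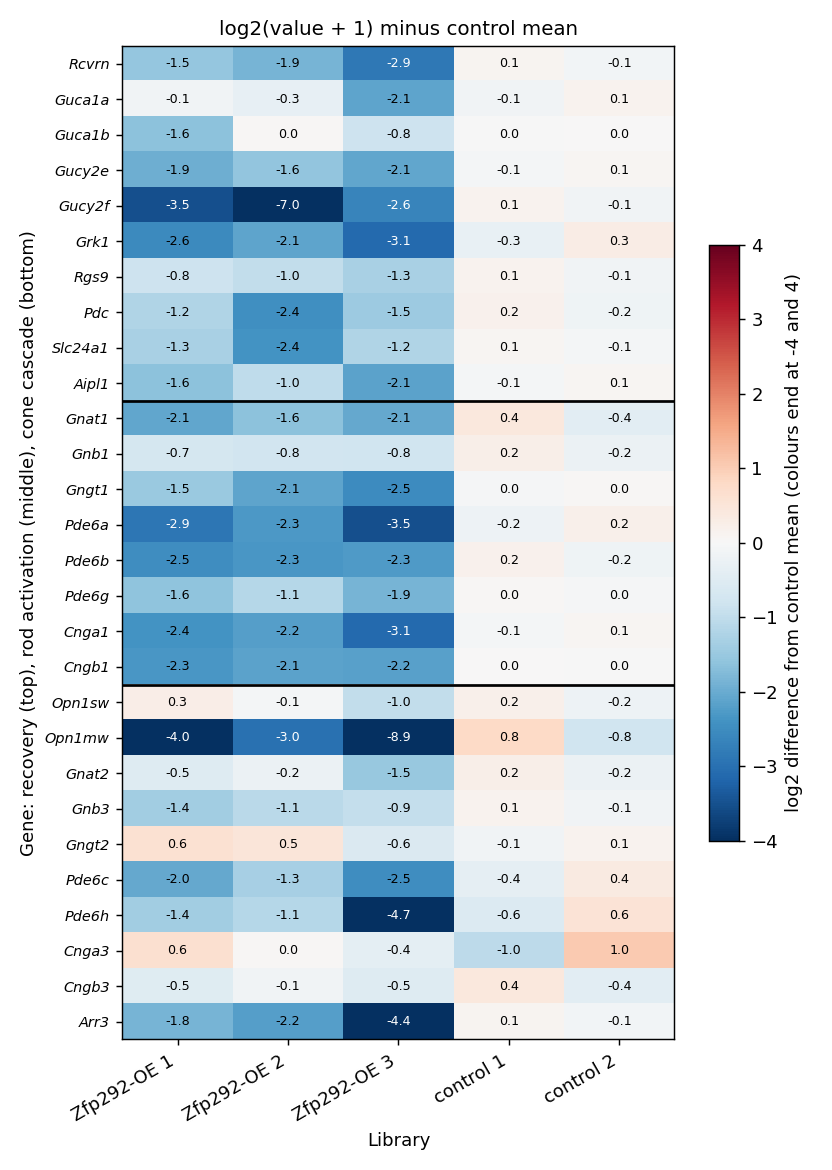
Each cell gives log2(normalised count + 1) of a gene in a library (columns) minus the mean of the 2 control libraries, for the recovery genes, 8 of the 9 rod activation genes and the cone genes (rows); blue is lower than control. Cngb1 lies between −2.32 and −2.15 in the 3 libraries labelled Zfp292-OE, whereas Guca1a runs from −0.13 in library 1 to −2.10 in library 3.

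Levels between genes were compared as normalised counts per kilobase of the longest protein-coding transcript in GENCODE, which ranged from 0.873 kb (Guca1a) to 8.33 kb (Gucy2e). In the libraries labelled Zfp292-OE the means ran in the order Pdc (37442 per kb), Guca1a (7386), Rcvrn (4936), Aipl1 (801.0), Guca1b (160.2), Rgs9 (151.0), Gucy2e (53.5), Grk1 (36.3), Slc24a1 (10.9) and Gucy2f (3.79). In control the order was Pdc (115743 per kb), Rcvrn (19636), Guca1a (11384), Aipl1 (2295), Rgs9 (308.7), Guca1b (251.7), Grk1 (216.5), Gucy2e (193.9), Gucy2f (46.1) and Slc24a1 (32.0). Neighbours whose libraries overlapped were Guca1a and Rcvrn, Guca1b and Rgs9, Gucy2e and Grk1, and Slc24a1 and Gucy2f in the libraries labelled Zfp292-OE. In control they were Guca1b and Grk1, and Grk1 and Gucy2e. Per kilobase, then, Rcvrn was above Guca1a in both control libraries, while in the libraries labelled Zfp292-OE these levels overlapped. Where the true transcript is shorter than the longest annotated one, a level per kilobase is too low.

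Other genes of recovery, cyclase and PDE6 trafficking, GTP supply and retinoid clearance were read beside the 10. Of 12 listed, 0 rose, 8 fell and 4 did not pass, with a median log2 fold change of −1.22. Rdh12, a retinol dehydrogenase of photoreceptors, fell by 2.70 on the log2 scale. Rd3, which carries the cyclases out of the endoplasmic reticulum, had 4147, 4040 and 4036 normalised counts in the libraries labelled Zfp292-OE, against 13438 and 10487 in control (−1.54, adjusted p = 0.00057 in limma). Unc119, a carrier of lipid-modified transducin, had 59991, 59583 and 60530, against 146348 and 133222 (−1.22, adjusted p = 0.00053 in limma). Both were far more even between the 3 libraries than the cyclases were. Pde6d, a more widely made carrier of prenylated proteins named after its values were seen, gave −0.12 on the log2 scale (adjusted p = 0.57 in limma). Of the 9 rod activation genes all 9 fell, with a median of −2.21, among them Cnga1 (−2.57) and Cngb1 (−2.21), which form the channel, and Pde6b (−2.36), a catalytic subunit of the phosphodiesterase. Among 10 cone genes there were 4 that fell, 0 that rose and 6 that missed the threshold (median −0.94). That count was 2 under quantile normalization, with array weights and without library 1 labelled Zfp292-OE, 6 without library 2, and 0 with no filter on low values or without either control. The cone genes that fell were Arr3, the cone transducin subunit Gnb3 (−1.13), the cone phosphodiesterase subunit Pde6c (−1.94) and the opsin Opn1mw (−5.30), which was at 0 in library 3 labelled Zfp292-OE. Opn1mw ran from −6.46 to −3.49 with 1 library left out, its end nearest 0 being without library 3, and it lost its call in DESeq2 (adjusted p = 0.12). Pde6c lost its call without library 1 or library 3 labelled Zfp292-OE. Whether the recovery genes fell less than the rod activation genes was not tested.

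**Figure D3:**
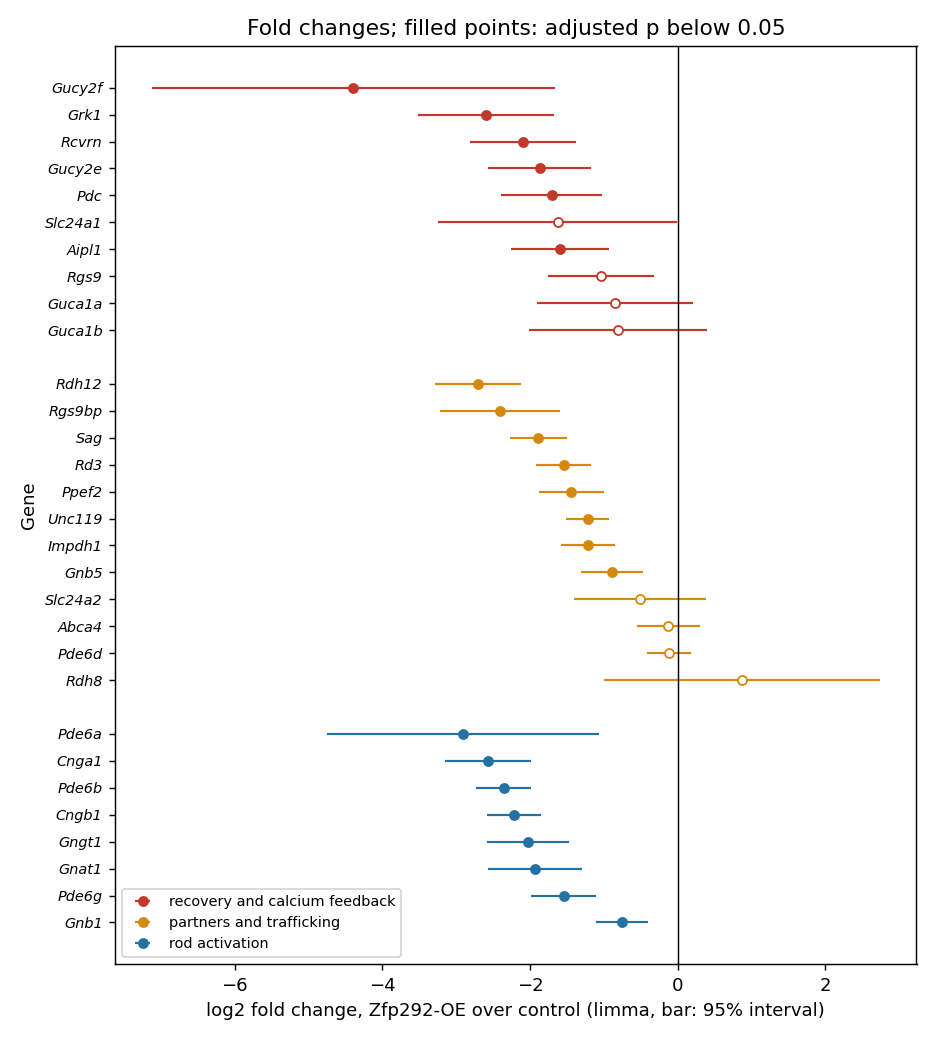
Log2 fold changes from limma (libraries labelled Zfp292-OE over control) with 95% intervals for the recovery genes (red), their partners (orange) and 8 of the 9 rod activation genes (blue); filled points have an adjusted p below 0.05. All 10 recovery genes lie left of 0, and the intervals of Guca1a and Guca1b cross it.

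Relatives of these proteins that are not confined to photoreceptors gave a mixed picture. Of 28 symbols listed 26 were matched and 22 were tested, of which 0 rose, 2 fell and 20 did not pass, with a median of −0.75 on the log2 scale. The unmatched Adrbk1 and Adrbk2 are older symbols of Grk2 and Grk3, which were matched. The 2 that fell are 2 of 22, against 7.38% of all tested genes called lower. The count was 4 with equal totals, with the filter at 50, in DESeq2 and without library 2 labelled Zfp292-OE. It was 1 with array weights, with no filter and without library 1 labelled Zfp292-OE, and 0 without either control. Pdcl, the phosducin-like protein of most cells, had a log2 fold change of 0.25 with a 95% interval of −0.12 to 0.63. It was named after its values were seen, as were the kinases Grk2 to Grk6, whose values of −0.84 to 0.12 did not pass. Relatives lower by amounts near those of the 10 also occurred: the exchanger Slc24a3 fell by 1.98 (adjusted p = 0.0020 in limma) and the neuronal calcium sensor Hpca by 1.16 (adjusted p = 0.046). Hpca lost its call in some fits, with a range over 16 alternatives of 0.016 to 0.27. Ncs1 (−0.78, adjusted p = 0.0503) and the natriuretic peptide receptor Npr2 (−0.78, adjusted p = 0.062), also a membrane guanylate cyclase, missed the threshold in limma. Ncs1 passed in edgeR (adjusted p = 0.047) and DESeq2 (0.015), and Npr2 in DESeq2 (0.023) but not in edgeR (0.058).

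**Figure D4:**
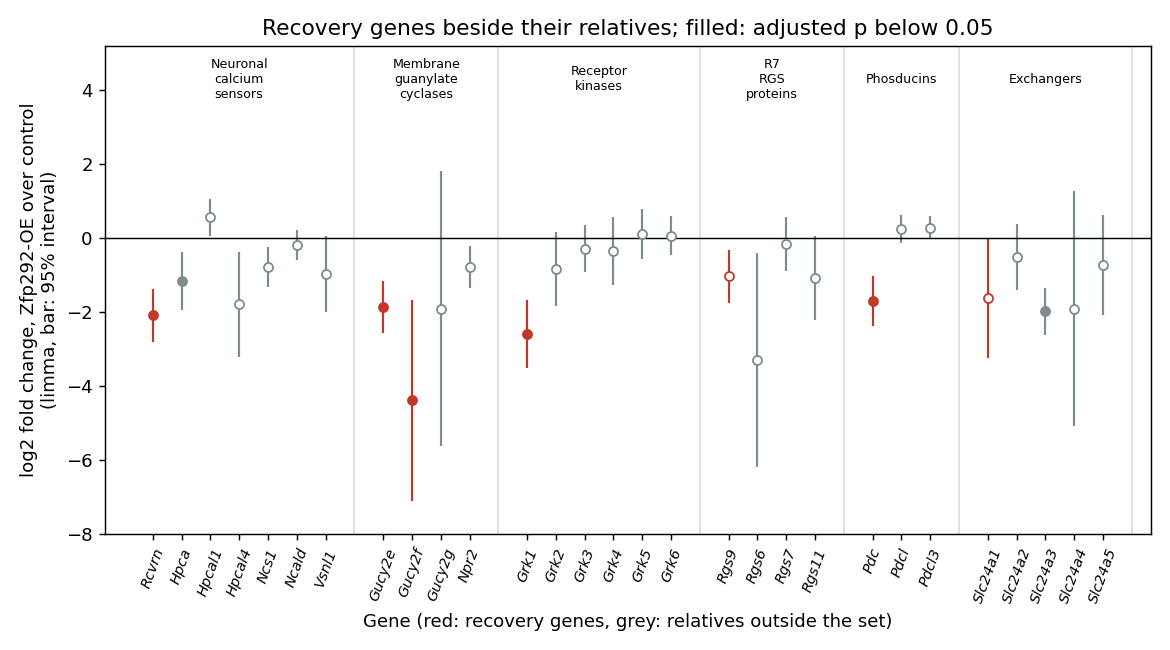
Log2 fold changes from limma with 95% intervals, grouped by protein family, for recovery genes (red) and tested relatives (grey); filled points have an adjusted p below 0.05. Pdc lies at −1.71, while Pdcl and Pdcl3 have intervals that hold 0.

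The genes whose pattern was most like the mean of the 10 were sought among 14298 genes with a mean of at least 50, by Euclidean distance of log2(normalised count + 1) minus the control mean over the 5 libraries. For libraries 1, 2 and 3 labelled Zfp292-OE this mean profile was −1.63, −1.97 and −1.97. Outside the set the 5 nearest were Elfn1, an adhesion protein of photoreceptor synapses (distance 0.143), the netrin receptor gene Unc5d (0.154), Samd11 (0.265), the Fc receptor gene Fcgrt (0.296) and the arrestin Sag (0.299). Their log2 fold changes ran from −1.98 (Fcgrt, adjusted p = 0.054 in limma) to −1.72 (Samd11, adjusted p = 0.00045). Elfn1 had 286.4, 219.0 and 206.1 normalised counts in the libraries labelled Zfp292-OE, against 878.4 and 794.8 in control. Of the 10 themselves Gucy2e was nearest to their own mean, at rank 43 and a distance of 0.518, and Gucy2f farthest, at 5.44. This ranking rests on the near-empty Gucy2f value in library 2. An alternative chosen after the data were seen left Gucy2f out, and the mean of the other 9 was then −1.42, −1.40 and −1.90 in the 3 libraries. Of the 5 nearest genes 0 were shared, and the earlier 5 ranked 48 to 206 outside the set. The nearest was then Impg2, a proteoglycan of the matrix around photoreceptors, at a distance of 0.204. It had 6576, 6960 and 4547 normalised counts in the libraries labelled Zfp292-OE, against 16103 and 16688 in control (log2 fold change −1.47, adjusted p = 0.0014 in limma). The genes named as most alike therefore depend on 1 member.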

How the data were processed

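Messenger RNA of sorted mouse retinal cells was sequenced in 5 libraries, which were grouped by their labels. The authors deposited a normalised signal for each gene. Dividing each library by what 1 read is worth there gave whole reads for 100% of values (tolerance 1e-06), so 1 factor per library had been applied. GRCm38 and mm10 are named as builds, per the submitters' processing notes. For aligner, counter, annotation, scaling and strand, the answer is not given in the sources used here. The table holds 24594 genes, 18 of them without a symbol, and 0 columns of other samples.

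The test was limma 3.58.1 (trend, in R 4.3.3) on log2(value + 1), for genes averaging 10 or more across libraries. A count model was not the main test because the values were normalised. The recovered reads were also tested in edgeR 4.0.16, which called 2621 genes, and in DESeq2 1.42.0. A pseudocount of 1 understates the fold change of low genes. Gene coordinates are from RefSeq (GRCm38.p6), which matched 24570 identifiers, and transcript lengths and exon overlaps from GENCODE M21. Tables used Python 3.11.15 and scipy 1.17.1.

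The 10 genes and all lists were chosen with earlier results of these data known. Named genes were the 10, the 4 lowest p-values in every other list, any called against the direction of its list, Zfp292, and the 5 genes most alike. Not every gene this rule takes is given a value, and some results are not reported here. Some others are said to be named after their values were seen. Grm6, Vsx1 and Rpe65, given for values of 0, also lie outside this rule, as do Gngt1 and Pdcl3.

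Simulated data were made from these libraries (16316 genes, 200 of them changed, drawn 10 times). In them limma found 28.8% of 2-fold changes, 64.2% of 4-fold changes and 70.4% of 8-fold changes, and 11.1% of its calls were false. In the real libraries 2836 genes were called, far more than the 200 changed here. Both rates depend on how many genes change, so they need not hold for the real calls. The 16 alternatives varied the pseudocount (0.5, 10), the filter (none, 50), the scaling (TMM, equal totals, quantile), array weights, the tool (edgeR, DESeq2) and a block for replicate number, or omitted 1 of the libraries.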

Additional observations from a re-analysis of the deposited data

How the results depend on the processing

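Lists of partners, rod activation genes and photoreceptor factors kept their counts of calls within 1.5 times, except with no filter (4, 3 and 0) and without either control (0, 1 and 0). All 10 recovery genes kept a negative log2 fold change under each of the 16 alternatives. Of these 160 values 136 stayed on the same side of the threshold, 19 lost a call and 5, all of Rgs9, gained one. With both controls kept, the number of recovery genes called was 5 to 7, except without a filter on low values, where limma called 0. Without that filter 5109 of all 24594 genes had an unadjusted p below 0.05 in limma, and so did 6 of the recovery genes. Leaving out 1 library gave 0 to 6 of them, and 1 to 2352 genes in all, 0 to 1359 higher and 1 to 993 lower. Without either control the count was 1, and without library 1 labelled Zfp292-OE it was 1657, against 2836 with all libraries (1632 higher, 1204 lower). With no filter limma called 365 genes, 127 higher and 238 lower. Equal totals gave 908 higher and 1977 lower, moving the median of all tested genes from −0.06 to −0.27 and that of the 10 to −1.88. DESeq2 gave 1829 lower. Zfp292 turned negative with equal totals (−0.17), quantile normalization (−0.21) and the replicate block (−0.011), and ran from −0.033 to 0.12 with 1 library left out. The causes were not tested. Libraries of the groups share only a replicate number: deviations of same-numbered libraries correlated at −0.04 and −0.03. With the replicate block 2498 genes and 6 of the 10 were called. Library 3 labelled Zfp292-OE has no partner there, so the block gives the fold changes found without it. The few reads of Gucy2f and Slc24a1 limit their precision. No gene met the rules for a closer look, which do not test groups of 3 or fewer.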
